A study of Mus musculus with 3 samples.

Results

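The 7 genes described here carry the adrenergic signal of the heart from receptor to second messenger: Adra1a, Adra1b, Adrb1, Adcy5, Adcy6, Adcy9 and Grk5. They were taken by gene symbol, and all 7 were found among the 29994 symbols counted. RNA was counted in droplets (10x Genomics) from ventricles of C57B6 mice in 3 libraries, with 3 pooled hearts and 1 library per group. The groups were TAC+ART (TAC surgery with artesunate), TAC (TAC surgery with vehicle) and Sham (sham surgery with vehicle). TAC is transverse aortic constriction, in which a tie around the aorta puts the left ventricle under pressure overload, and artesunate is an antimalarial drug of the artemisinin family. The hearts were stored frozen before processing, and the labels used here give no dose, time, sex or age. Single hearts cannot be told apart within a pool, so there was no replicate and no test, and every interval below is a 95% interval for counting error only. The sources used here do not state if the droplets held whole cells or nuclei; they are called cells below.

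Noradrenaline and adrenaline act on the heart muscle cell through beta receptors, of which the beta-1 receptor (gene Adrb1) is the main one, and through the alpha-1A and alpha-1B receptors (Adra1a, Adra1b). Beta receptors couple to Gs, which switches on adenylyl cyclases. The cyclases make cyclic AMP, which activates protein kinase A and strengthens and speeds the beat; types V and VI (Adcy5, Adcy6) are the main forms of heart muscle, and type IX (Adcy9) is a widely expressed form. Alpha-1 receptors couple to Gq and phospholipase C. The kinase GRK5 (Grk5) phosphorylates occupied receptors and so dampens their signal, and in mice it also acts in the nucleus on genes of hypertrophic growth.

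On GRCm38, Adra1a lies at chr14:66635251-66771168 on the + strand, Adra1b at chr11:43774606-43901210 on the - strand and Adrb1 at chr19:56722199-56733113 on the + strand. Adcy5 lies at chr16:35154877-35305738 on the + strand, Adcy6 at chr15:98589973-98610076 on the - strand, Adcy9 at chr16:4287529-4420498 on the - strand and Grk5 at chr19:60889749-61095968 on the + strand. In GENCODE M21 the far end of Grk5 overlaps Zfp950, a protein-coding gene on the other strand, and the sources used here do not state the strand rule of the counting. Zfp950 had 114 CPM (UMIs per 1000000 UMIs of the class) in TAC+ART, 141 CPM in TAC and 104 CPM in Sham in the Malat1-rich cardiomyocyte-like cells defined below. The other annotated overlaps, Gm29331 within Adcy6, Gm6142 within Adcy9, Gm49702 within Adcy5, and Gm9529 and Gm22520 within Grk5, had at most 1 UMI per library in those cells.

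The promoters of Grk5 and Adra1b are shown because these 2 genes had the widest gaps between libraries in cardiomyocyte-like cells, in opposite directions. The sequences are RefSeq's on GRCm38.p6, from 250 bases before to 50 bases after the start, read 5′ to 3′ on the gene's strand. Capitals mark matches on either strand to GGAAA, the core letters bound by NFAT factors, GGGCGG, the GC box bound by Sp1, TGACG, one arm of the cyclic AMP response element, or CACGTG, an E box. The table held a promoter for 5 of the 7 genes, and 2 starts for Adra1b.
Grk5, chr19:60889499-60889798, + strand: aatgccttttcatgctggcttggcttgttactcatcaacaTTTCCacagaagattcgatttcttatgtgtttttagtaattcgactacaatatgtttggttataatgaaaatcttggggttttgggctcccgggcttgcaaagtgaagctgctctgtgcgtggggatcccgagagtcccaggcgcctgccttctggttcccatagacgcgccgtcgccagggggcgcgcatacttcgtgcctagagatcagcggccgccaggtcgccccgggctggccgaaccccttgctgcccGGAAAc
Adra1b, upstream start, chr11:43901188-43901487, - strand: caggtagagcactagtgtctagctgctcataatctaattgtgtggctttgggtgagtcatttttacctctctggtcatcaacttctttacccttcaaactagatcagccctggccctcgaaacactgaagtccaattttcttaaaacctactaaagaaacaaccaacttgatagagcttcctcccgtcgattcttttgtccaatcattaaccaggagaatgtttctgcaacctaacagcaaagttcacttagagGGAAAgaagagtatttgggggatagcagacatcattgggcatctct
Adra1b, downstream start, chr11:43836440-43836739, - strand: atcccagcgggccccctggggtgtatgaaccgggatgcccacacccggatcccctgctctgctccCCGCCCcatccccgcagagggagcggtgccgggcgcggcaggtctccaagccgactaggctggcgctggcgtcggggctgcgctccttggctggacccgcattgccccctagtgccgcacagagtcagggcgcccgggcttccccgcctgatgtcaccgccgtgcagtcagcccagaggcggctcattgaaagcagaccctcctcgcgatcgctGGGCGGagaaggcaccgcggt
The Grk5 window held GGAAA at 2 places and none of the other motifs. The upstream Adra1b window held GGAAA at 1 place, and the downstream window held GGGCGG at 2 places. Of the windows not shown, Adrb1 had 1 match each to the cyclic AMP arm, the GC box and the NFAT core. Adcy9 had 1 cyclic AMP arm and 5 GC boxes, and Adcy5 had 4 GC boxes. These letters are common: of 32851 promoters in the table, 61.3% held GGAAA, 35.7% GGGCGG, 20.8% TGACG and 7.15% CACGTG, so the matches are a description of the windows only. GC content was 54.3% in the Grk5 window, 42.3% in the upstream and 71.3% in the downstream Adra1b window.

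The libraries held 33364667 UMIs in TAC+ART, 37658150 in TAC and 17710689 in Sham, and 6480, 6972 and 3638 cells in the same order after filters. Between 37 and 46 barcode sequences per library also occurred in another library. Each cell was assigned to a class by fixed marker genes, none of them among the 7 genes or their pathway. Of these classes, 7 had at least 50 cells in every library: cardiomyocyte-, fibroblast-, endothelial-, endocardial-, lymphatic endothelial-, pericyte- and macrophage-like cells. Cardiomyocyte-like cells numbered 422 in TAC+ART, 275 in TAC and 323 in Sham (6.51%, 3.94% and 8.88% of cells).

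Cardiomyocyte-like cells came in 2 kinds, and their mix differed between the libraries. In one kind at least 5% of UMIs were of Malat1, a long noncoding RNA kept in the nucleus; the other kind had little Malat1 and much Mb (myoglobin) and mitochondrial RNA. The Malat1-poor kind made up 39.3% of cardiomyocyte-like cells in TAC+ART (166 of 422, interval 34.6 to 44.2%), 64.0% in TAC (176 of 275, 58.0 to 69.7%) and 21.7% in Sham (70 of 323, 17.3 to 26.6%). Only 18, 8 and 19 cells lay within 1 percentage point of that limit. Malat1-poor cells had median depths of 2832.5 to 3077 UMIs, against 7632.5 to 8049 UMIs in Malat1-rich cells. Levels of the genes differed between the kinds, so the main values are given for all cardiomyocyte-like cells and for the Malat1-rich ones. The split was chosen after seeing the data, and what produces the 2 kinds was not tested. In a clustering of all cells, cluster 8 held 62.6%, 37.1% and 79.9% of the cardiomyocyte-like cells of TAC+ART, TAC and Sham, and cluster 22 held 20.4%, 40.0% and 11.5%. Cluster 9, which got no class name and whose leading genes include Cilp, Thbs4, Col1a1 and Lox, genes of matrix-making cells, held 11.8% of those of TAC+ART and 14.5% of those of TAC.

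**Figure D1:**
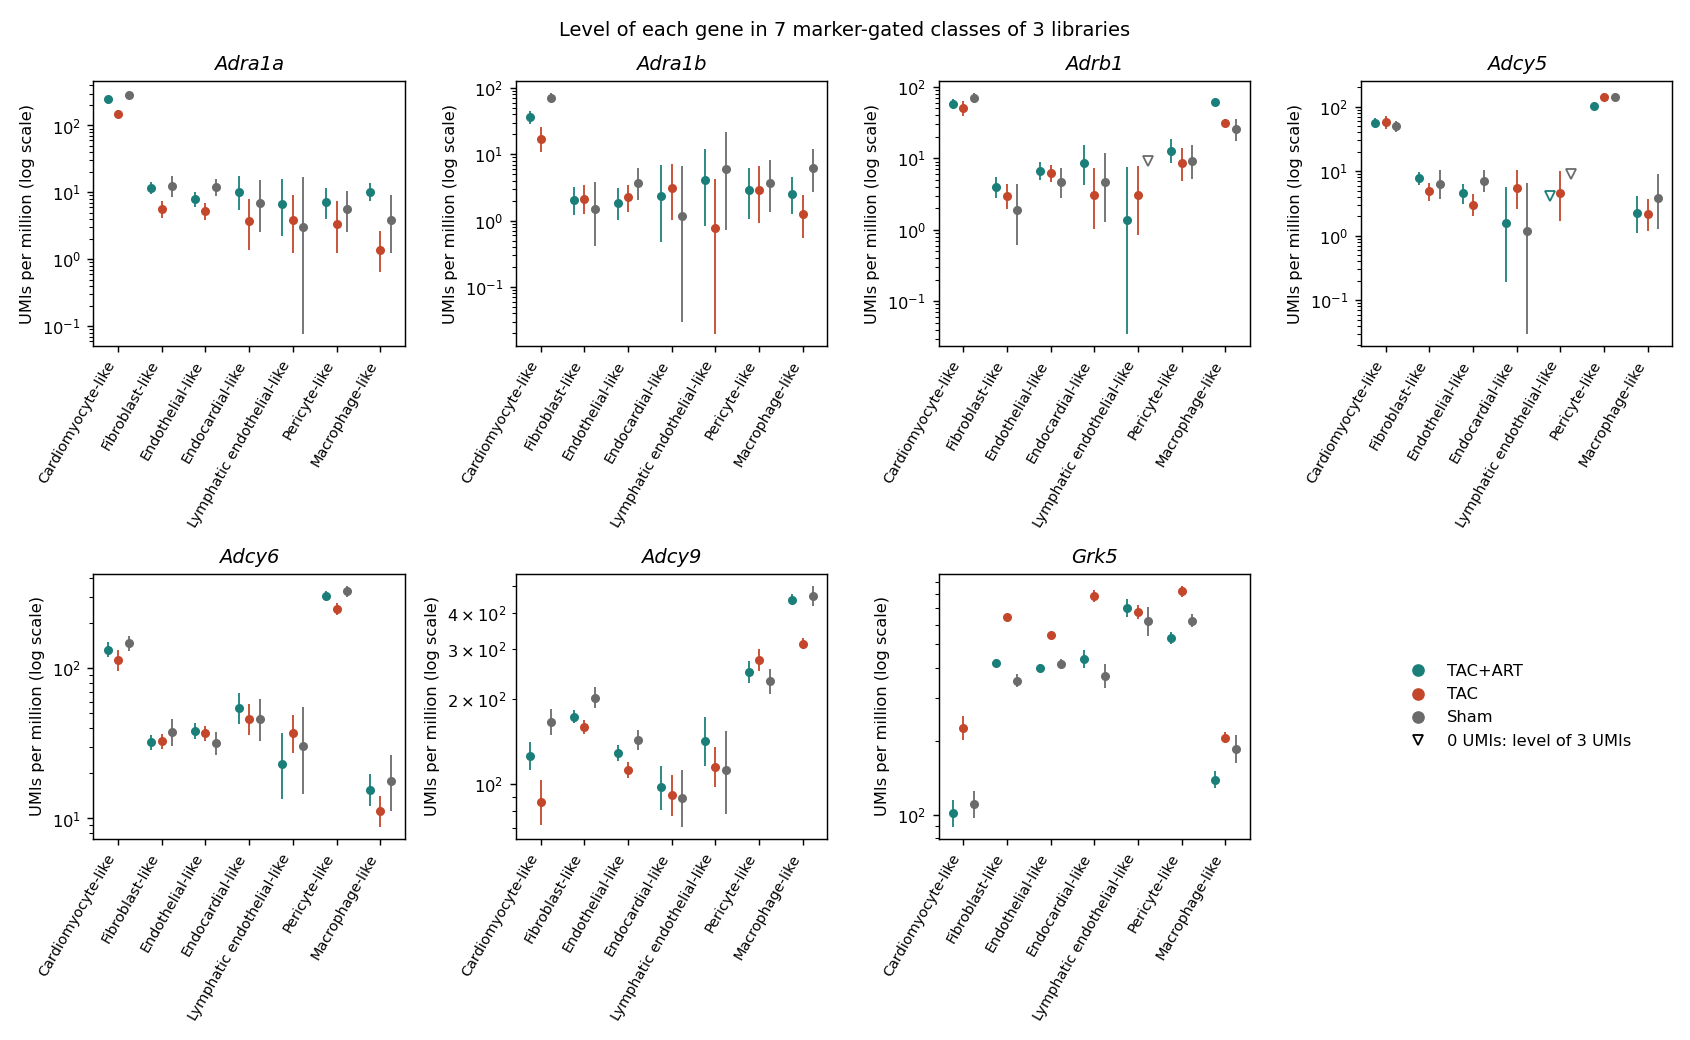
Level of each gene in CPM (vertical axis, log scale) in 7 marker-gated classes (horizontal axis) of the TAC+ART, TAC and Sham libraries. Points are class sums, bars are exact Poisson intervals, and open triangles mark 0 UMIs at the level that 3 UMIs would give; Adra1a and Adra1b stood highest in cardiomyocyte-like cells, and Grk5 was highest in TAC in 6 of the 7 classes.

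The alpha-1 receptor genes had their highest level in cardiomyocyte-like cells in every library, and Adrb1 was shared between cardiomyocyte- and macrophage-like cells. Adra1a had 246, 149 and 281 CPM in cardiomyocyte-like cells of TAC+ART, TAC and Sham, against 1.40 to 12.5 CPM in the other 6 classes. Of all Adra1a UMIs, 61.3% in TAC+ART, 55.9% in TAC and 73.2% in Sham lay in cardiomyocyte-like cells. Adra1b had 35.8, 16.9 and 71.1 CPM there and at most 6.18 CPM in the other 6 classes. Summed cardiomyocyte markers in fibroblast-like cells reached 6.78 to 7.67% of their cardiomyocyte level, and the source of these low counts was not tested. Among the 6 classes other than cardiomyocyte-like, the levels of Adra1a and of Adra1b overlapped across libraries and were not put in order.

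Adrb1 had 58.1, 49.8 and 69.7 CPM in cardiomyocyte-like cells of TAC+ART, TAC and Sham, and 61.1, 31.2 and 25.5 CPM in macrophage-like cells. It stayed at or under 12.9 CPM in the other 5 classes, and in TAC+ART the macrophage- and cardiomyocyte-like levels had overlapping intervals. Per 100 Adra1a UMIs there were 596, 2222 and 660 Adrb1 UMIs in macrophage-like cells of TAC+ART, TAC and Sham. These ratios rest on 45, 9 and 5 Adra1a UMIs. In cardiomyocyte-like cells there were 23.6, 33.5 and 24.8 Adrb1 UMIs per 100 Adra1a UMIs. The part of other cells' RNA in the macrophage counts was not tested. Macrophage-like cells were 14.3%, 18.1% and 7.78% of the cells and held 45.2%, 46.9% and 12.9% of all Adrb1 UMIs in TAC+ART, TAC and Sham. Cardiomyocyte-like cells held 23.3%, 16.0% and 59.0%. The class with the most Adrb1 UMIs was thus macrophage-like in both TAC libraries and cardiomyocyte-like in Sham.

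The cyclases were spread more widely and peaked outside heart muscle. Adcy5 had 102, 142 and 143 CPM in pericyte-like cells (cells wrapped around capillaries) of TAC+ART, TAC and Sham, and 55.5, 57.9 and 49.9 CPM in cardiomyocyte-like cells; the other 5 classes were at or under 7.80 CPM. Adcy6 had 302, 249 and 325 CPM in pericyte-like cells and 133, 114 and 147 CPM in cardiomyocyte-like cells, followed by endocardial-like cells at 45.9 to 54.5 CPM. Its next classes, endothelial-, fibroblast- and lymphatic endothelial-like, had overlapping ranges between 23.2 and 38.3 CPM, and macrophage-like cells were lowest at 11.2 to 17.8 CPM. Of the 7 classes, Adcy9 was highest in macrophage-like cells, with 446, 312 and 462 CPM, then pericyte-like cells with 249, 273 and 231 CPM and fibroblast-like cells with 173, 159 and 201 CPM. Below those, endothelial-, cardiomyocyte-, lymphatic endothelial- and endocardial-like cells overlapped between 86.5 and 165 CPM. The 38 smooth muscle-like cells were too few to compare between libraries, but over all 3 libraries they had 441 CPM of Adcy5 (99 UMIs, 359 to 537), above the pericyte-like level of every library, and 633 CPM of Adcy9 (142 UMIs, 533 to 746), above the macrophage-like level of every library. The receptors had 0 UMIs in those 38 cells, where 3 UMIs would give 13.4 CPM.

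Grk5 ran the other way and was lowest in cardiomyocyte- and macrophage-like cells. It had 101, 226 and 110 CPM in cardiomyocyte-like and 139, 207 and 186 CPM in macrophage-like cells of TAC+ART, TAC and Sham, so the order of these 2 classes differed between libraries. Lymphatic endothelial-like cells had 702, 678 and 621 CPM and pericyte-like cells 529, 822 and 622 CPM. Endocardial-, fibroblast- and endothelial-like cells lay between 354 and 788 CPM with overlapping ranges.

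Cyclase genes outside the 7 marked other classes; these were picked after their values were seen. Over all 3 libraries, the cyclase gene Adcy7 had 286 CPM in fibroblast-like and 253 CPM in macrophage-like cells. Adcy3 had 141 CPM in pericyte-like cells, Adcy4 had 112 CPM in endothelial-like cells, and Adcy2 had 57.8 CPM in fibroblast-like cells.

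In cardiomyocyte-like cells Grk5 was higher and Adra1b and Adcy9 were lower in TAC than in Sham, in both readings of the class. A gene is counted as higher or lower when the ratio of library levels is at least 1.5-fold. In all cardiomyocyte-like cells, 1 of the 7 genes (Grk5) was higher in TAC, beside 26.0% of the 8011 genes with at least 50 UMIs, and 3 (Adra1a, Adra1b, Adcy9) were lower, beside 19.3%. In Malat1-rich cells 1 (Grk5) was higher, beside 14.1% of 6430 genes, and 2 (Adra1b, Adcy9) were lower, beside 14.3%. Shifts of this size were thus common among genes as a whole.

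**Figure D2:**
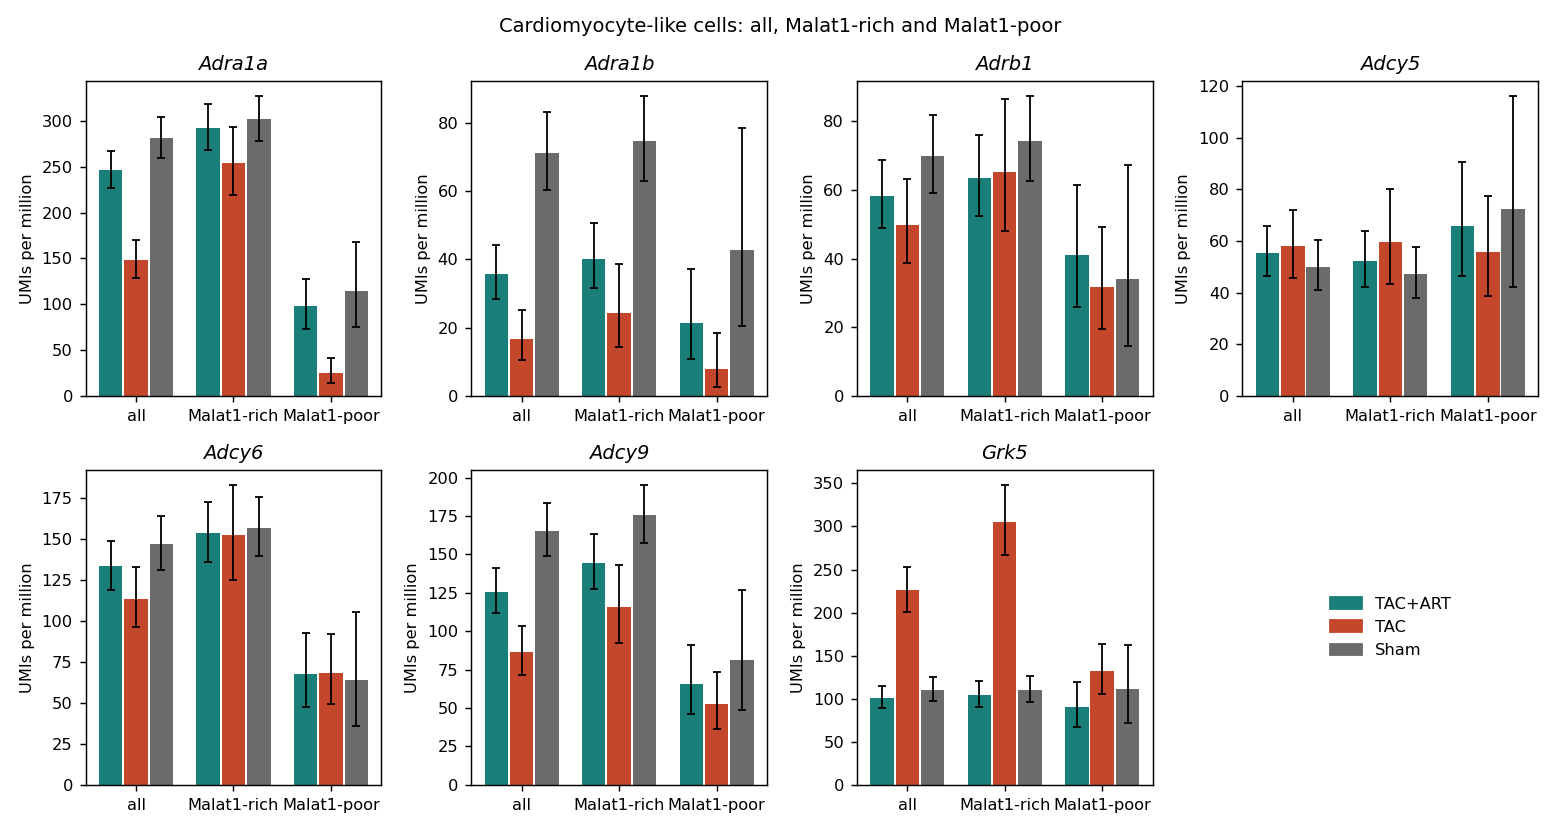
Level of each gene in CPM (vertical axis) in all, Malat1-rich and Malat1-poor cardiomyocyte-like cells of TAC+ART, TAC and Sham; bars are class sums with exact Poisson intervals. Adra1a, Adcy6 and Adcy9 were lower in Malat1-poor than in Malat1-rich cells of every library, as were the point values of Adra1b and Adrb1. Grk5 reached 306 CPM in Malat1-rich TAC cells.

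Among the receptors, Adra1b had 73 UMIs (40.2 CPM) in Malat1-rich cells of TAC+ART, 18 UMIs (24.5 CPM) in TAC and 144 UMIs (74.6 CPM) in Sham. Sham was the highest library, and its interval did not overlap that of either TAC library. The log2 ratio of TAC over Sham was -1.57 (-2.40 to -0.90) in Malat1-rich cells and -2.05 (-2.78 to -1.44) in all cardiomyocyte-like cells. In Malat1-rich cells the thinned share, taken at 1000 UMIs per cell, was 3.12% in TAC+ART (8 of 256 cells, 1.36 to 6.06%), 2.02% in TAC (2 of 99, 0.25 to 7.11%) and 6.72% in Sham (17 of 253, 3.96 to 10.5%). Without thinning the shares were 21.1%, 17.2% and 34.0%. In macrophage-like cells, where Adra1b had 1.25 to 6.18 CPM, thinned shares were 0.11 to 0.71%. Median depths there were 4195 to 4818.5 UMIs, against 7632.5 to 8049 UMIs in Malat1-rich cells. Fibroblast-like cells, with the lowest mean of the 7 classes at 1.90 CPM, had 0.32% in TAC+ART, 0.30% in TAC and 0.39% in Sham. Whether either class makes this RNA itself was not tested.

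Adra1a had 530 UMIs (292 CPM) in Malat1-rich cells of TAC+ART, 187 UMIs (254 CPM) in TAC and 582 UMIs (301 CPM) in Sham. One TAC cell alone gave 38 of the 187 UMIs. The TAC over Sham ratio was -0.92 (-1.16 to -0.69) in all cardiomyocyte-like cells, -0.24 (-0.49 to -0.01) in Malat1-rich cells and -0.45 (-0.72 to -0.19) in Malat1-rich cells without the top cell of each library. The difference was thus under 1.5-fold within the Malat1-rich kind. Malat1-poor cells had 55 UMIs of Adra1a (97.8 CPM) in TAC+ART, 16 UMIs (25.4 CPM) in TAC and 27 UMIs (115 CPM) in Sham. Their ratio was -2.16 (-3.17 to -1.23) in TAC over Sham and 1.91 (1.12 to 2.85) in TAC+ART over TAC, past 1.5-fold in both. Adra1b made up 12.1% of the alpha-1A and alpha-1B UMIs of Malat1-rich cells in TAC+ART (9.61 to 15.0%), 8.78% in TAC (5.29 to 13.5%) and 19.8% in Sham (17.0 to 22.9%). In all cardiomyocyte-like cells these shares were 12.7%, 10.2% and 20.2%. The balance of the 2 alpha-1 genes thus differed between Sham and both TAC libraries in either reading of the class.

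Adrb1 had 115 UMIs (63.4 CPM) in Malat1-rich cells of TAC+ART, 48 UMIs (65.2 CPM) in TAC and 143 UMIs (74.1 CPM) in Sham. The TAC over Sham ratio of -0.17 had an interval of -0.69 to 0.30, which held 0, so a difference was not detectable at this depth. In all cardiomyocyte-like cells the ratio was -0.48 (-0.92 to -0.06).

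Among the cyclases, Adcy9 had 262 UMIs (144 CPM) in Malat1-rich cells of TAC+ART, 85 UMIs (115 CPM) in TAC and 339 UMIs (176 CPM) in Sham. TAC was the lowest library, at -0.60 (-0.96 to -0.26) against Sham, and -0.93 (-1.25 to -0.63) in all cardiomyocyte-like cells. Adcy6 had 154, 152 and 157 CPM in Malat1-rich cells of TAC+ART, TAC and Sham, with a TAC over Sham ratio of -0.04 (-0.37 to 0.27), and -0.37 (-0.66 to -0.09) in all cells. Adcy5 had 52.3, 59.8 and 47.1 CPM, with a TAC over Sham ratio of 0.35 (-0.21 to 0.88), and 0.22 (-0.22 to 0.65) in all cells. Neither of the 2 main heart muscle cyclases passed 1.5-fold between any 2 libraries in either reading of the class.

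Grk5 had 190 UMIs (105 CPM) in Malat1-rich cells of TAC+ART, 225 UMIs (306 CPM) in TAC and 213 UMIs (110 CPM) in Sham. TAC stood apart from the other 2 libraries, whose intervals overlapped. The TAC over Sham ratio was 1.47 (1.19 to 1.75), and 1.03 (0.78 to 1.28) in all cardiomyocyte-like cells; in Malat1-poor cells it was 0.23 (-0.40 to 0.95). Without the cell with the most Grk5 UMIs in each library the Malat1-rich ratio was 1.48 (1.19 to 1.78). A Grk5 UMI was present at 1000 UMIs per cell in 8.20% of Malat1-rich cells of TAC+ART (21 of 256, 5.15 to 12.3%), 23.2% of TAC (23 of 99, 15.3 to 32.8%) and 9.09% of Sham (23 of 253, 5.85 to 13.3%). Unthinned shares were 32.4%, 60.6% and 36.0%.

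Most other classes carried more Grk5 than cardiomyocyte-like cells, so their markers were measured in the same cells. Summed over the Malat1-rich cells, the 10 fibroblast markers reached 10.8% of their level in fibroblast-like cells in TAC+ART, 9.72% in TAC and 4.50% in Sham, and none was at 0. The 9 endothelial markers reached 2.48%, 3.39% and 1.54% of their endothelial-like level, again with none at 0. In the same order, endocardial markers reached 5.51%, 4.66% and 4.25% of their own class level and pericyte markers 3.07%, 3.04% and 3.55%. Lymphatic endothelial markers reached 1.57%, 1.49% and 1.97%. The class gate leaves out cells that score close to an unrelated class, so it limits all these levels. Grk5 itself reached 25%, 47.2% and 31.2% of its fibroblast-like level and 26.2%, 56.2% and 26.6% of its endothelial-like level. The fibroblast markers stood at 1595 CPM in TAC+ART, 1287 CPM in TAC and 559 CPM in Sham, so they were lower in TAC than in TAC+ART and higher than in Sham, and the endothelial markers were higher in TAC than in both other libraries. Their part in the Grk5 gap was not tested.

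**Figure D3:**
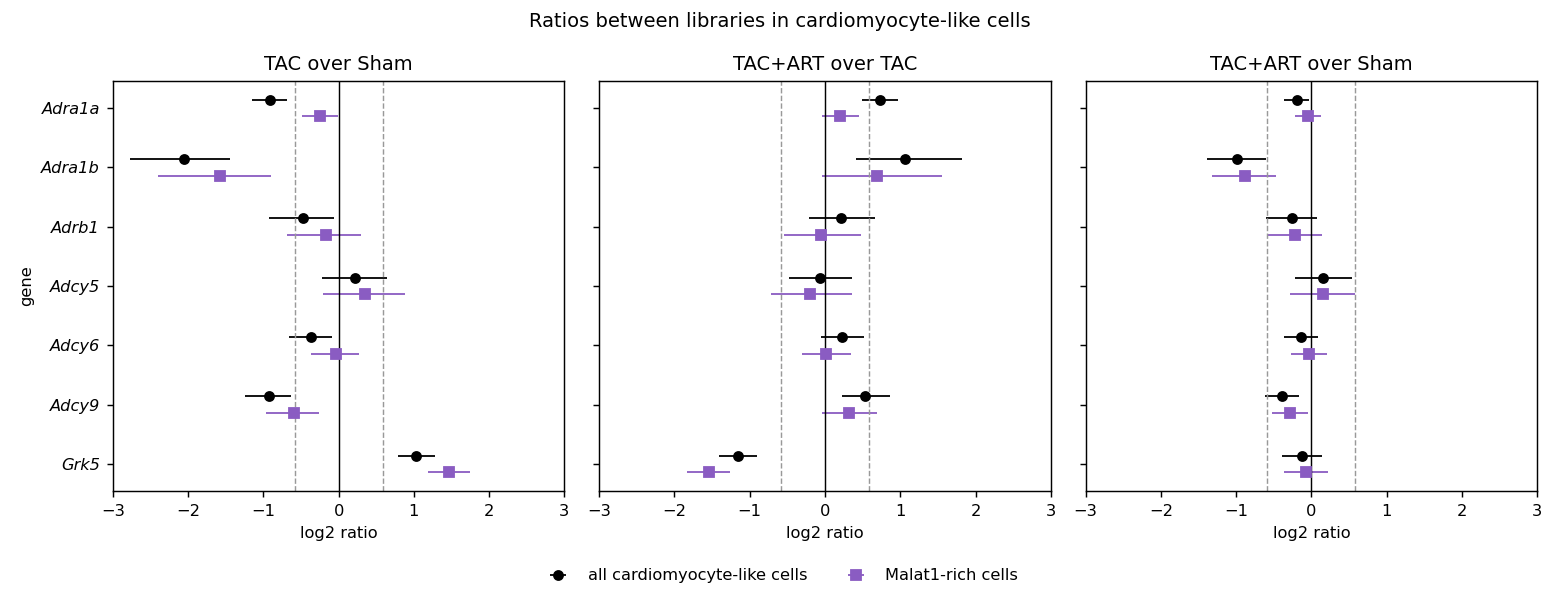
Log2 ratios (horizontal axis) of each gene (vertical axis) between libraries, in all cardiomyocyte-like cells (black) and in Malat1-rich cells (purple), with exact conditional intervals; dashed lines mark 1.5-fold. Grk5 lay beyond the dashed lines in both comparisons with TAC and in both sets of cells, and Adra1a in those comparisons only in the set of all cells.

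Between TAC+ART and TAC, Grk5 was lower in TAC+ART in both readings of the class. In all cardiomyocyte-like cells 1 of the 7 genes (Grk5) was lower in TAC+ART, beside 17.9% of 8337 genes, and 2 (Adra1a, Adra1b) were higher, beside 10.2%. In Malat1-rich cells 1 (Grk5) was lower, beside 10.9% of 6258 genes, and 1 (Adra1b) was higher, beside 8.05%. The Grk5 ratio of TAC+ART over TAC was -1.55 (-1.83 to -1.26) in Malat1-rich cells and -1.15 (-1.40 to -0.91) in all cardiomyocyte-like cells. The Adra1b ratio was 0.69 (-0.04 to 1.55) in Malat1-rich cells, from 73 and 18 UMIs, and 1.06 (0.41 to 1.82) in all cells. Adra1a gave 0.20 (-0.04 to 0.45) in Malat1-rich cells and 0.72 (0.49 to 0.96) in all cells. Adcy9 gave 0.32 (-0.04 to 0.69) and 0.54 (0.23 to 0.86). Without the top cell of each library, Malat1-rich cells gave 0.39 (0.12 to 0.66) for Adra1a and 0.78 (0.02 to 1.70) for Adra1b. Adcy9 then gave 0.40 (0.03 to 0.79), while the intervals of Adrb1, Adcy5 and Adcy6 still held 0. For each of the 7 genes the top cell held a larger share of UMIs in TAC (99 cells) than in TAC+ART (256 cells). The shares were 20.3% and 3.58% for Adra1a, 11.1% and 4.11% for Adra1b, and 9.41% and 3.05% for Adcy9. The cell is picked by its UMIs of the gene, so its removal lowers TAC more. Intervals that leave 0 only after this step are thus no support for a difference. Adrb1, Adcy5 and Adcy6 were between -0.20 and 0.01 in Malat1-rich cells and between -0.06 and 0.23 in all cells. Both this comparison and that of TAC with Sham use the TAC library, so a high or low TAC value enters both.

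TAC+ART against Sham uses no TAC library. In all cardiomyocyte-like cells 1 of the 7 genes (Adra1b) was lower in TAC+ART, beside 8.06% of 8794 genes, and 0 were higher, beside 14.3%. In Malat1-rich cells the count was again 1 lower (Adra1b), beside 7.71%, and 0 higher, beside 7.71%. The Adra1b ratio was -0.89 (-1.32 to -0.47) in Malat1-rich cells and -0.99 (-1.39 to -0.60) in all cells. Grk5 gave -0.08 (-0.37 to 0.21) and Adcy9 gave -0.28 (-0.52 to -0.05) in Malat1-rich cells. In all cells they gave -0.12 (-0.39 to 0.14) and -0.39 (-0.62 to -0.17).

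Malat1-rich cells with and without a UMI of Nppa (the natriuretic peptide switched on in strained ventricle) were compared at 1000 UMIs per cell. There were 32 with Nppa in TAC+ART, 25 in TAC and 1 in Sham. In TAC, Adra1a had 0 UMIs in the 25 cells with Nppa, which allows up to 120 CPM by the limit of 3 UMIs and 148 CPM by the Poisson interval, and 17 UMIs (230 CPM, 134 to 368) in the 74 cells without. The Poisson intervals overlapped. In TAC+ART, Adra1a had 219 CPM with Nppa (7 UMIs, 87.9 to 451) and 237 CPM without (53 UMIs, 177 to 309). Grk5 in TAC had 440 CPM with Nppa (11 UMIs, 220 to 787) and 284 CPM without (21 UMIs, 176 to 434), which overlap. Over all cardiomyocyte-like cells of TAC the Grk5 order was the opposite. It had 146 CPM with Nppa (18 UMIs, 86.7 to 231) and 224 CPM without (34 UMIs, 155 to 313), again overlapping. Adra1a kept its order there, at 48.8 CPM with Nppa and 125 CPM without. Median Malat1 in those cells was 1.72% with Nppa and 6.54% without. These are few UMIs, and the split shares its cells with the comparisons above.

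Outside heart muscle, at most 2 of the genes with at least 50 UMIs passed 1.5-fold in one direction in any class. In TAC over Sham, fibroblast-like cells had 1 of 5 higher (Grk5, beside 17.3% of all genes) and 1 lower (Adra1a, beside 12.7%). Endothelial-like cells had 0 of 6 higher (11.0%) and 2 lower (Adra1a and Adcy5, 9.41%), and endocardial-like cells had 1 of 3 higher (Grk5, 10.2%) and 0 lower (11.0%). Of these, Adra1a and Adcy5 were at most at 12.5 CPM in their class, and the part of other cells' RNA in them was not tested. Lymphatic endothelial-like cells had 0 of 3 higher (14.3%) or lower (9.66%), pericyte-like cells 0 of 4 higher (10.8%) or lower (7.93%), and macrophage-like cells 0 of 4 higher (12.6%) and 1 lower (Adcy6, 11.6%).

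In TAC+ART over TAC, fibroblast-like cells had 2 of 6 higher (Adra1a and Adcy5, beside 8.32%) and 1 lower (Grk5, 7.82%). Endothelial-like cells had 1 of 6 higher (Adra1a, 6.55%) and 0 lower (5.37%), and endocardial-like cells 0 of 3 higher (9.87%) and 1 lower (Grk5, 6.49%). Lymphatic endothelial-like cells had 0 of 3 higher (6.06%) and 1 lower (Adcy6, from 17 and 48 UMIs, 7.85%). Pericyte-like cells had 0 of 4 higher (5.54%) and 1 lower (Grk5, 5.28%), and macrophage-like cells 2 of 5 higher (Adra1a and Adrb1, 6.69%) and 0 lower (6.77%). Grk5 and Adra1a each passed in 3 classes, Adra1a at levels of at most 11.7 CPM.

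Grk5 was higher in TAC than in Sham outside heart muscle too. It had 418, 648 and 354 CPM in fibroblast-like cells of TAC+ART, TAC and Sham, from 3703, 5429 and 935 UMIs. The TAC over Sham ratio there was 0.87 (0.77 to 0.97), past 1.5-fold. In endocardial-like cells, the lining of the heart chambers, Grk5 had 434, 788 and 371 CPM, a TAC over Sham ratio of 1.09 (0.91 to 1.27). TAC was the high library in both classes. Under 1.5-fold, the ratio was 0.39 (0.31 to 0.47) in endothelial-, 0.40 (0.29 to 0.52) in pericyte-, 0.15 (-0.05 to 0.36) in macrophage- and 0.13 (-0.09 to 0.35) in lymphatic endothelial-like cells.

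In TAC+ART over TAC, Grk5 was lower by at least 1.5-fold in 3 of these 6 classes. The ratio was -0.86 (-1.01 to -0.71) in endocardial-like cells, -0.64 (-0.75 to -0.52) in pericyte-like cells and -0.63 (-0.69 to -0.57) in fibroblast-like cells. Macrophage-like cells had -0.58 (-0.72 to -0.44), just under 1.5-fold, and endothelial-like cells -0.45 (-0.51 to -0.38). Lymphatic endothelial-like cells were at 0.05 (-0.11 to 0.21). The fibroblast-like class was made of different clusters in each library: cluster 11 led in TAC+ART (47.5% of its cells), cluster 15 in TAC (73.9%) and cluster 12 in Sham (68.7%). In cluster 14, present in all 3 libraries, Grk5 had 465 CPM in TAC+ART (439 to 491), 924 CPM in TAC (875 to 975) and 476 CPM in Sham (426 to 530). In cluster 15, which had enough such cells in the TAC libraries alone, Grk5 had 533 CPM in TAC+ART (494 to 574) and 608 CPM in TAC (589 to 628), a smaller gap than in cluster 14. The part of cluster makeup in the fibroblast-like ratios was not tested. Endothelial-like cells were led by cluster 1 in TAC+ART (38.7%) and by cluster 0 in TAC (33.9%) and Sham (56.6%). Pericyte- and endocardial-like cells each came almost wholly from 1 cluster in every library (97.3 to 99.6% of their cells).

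**Figure D4:**
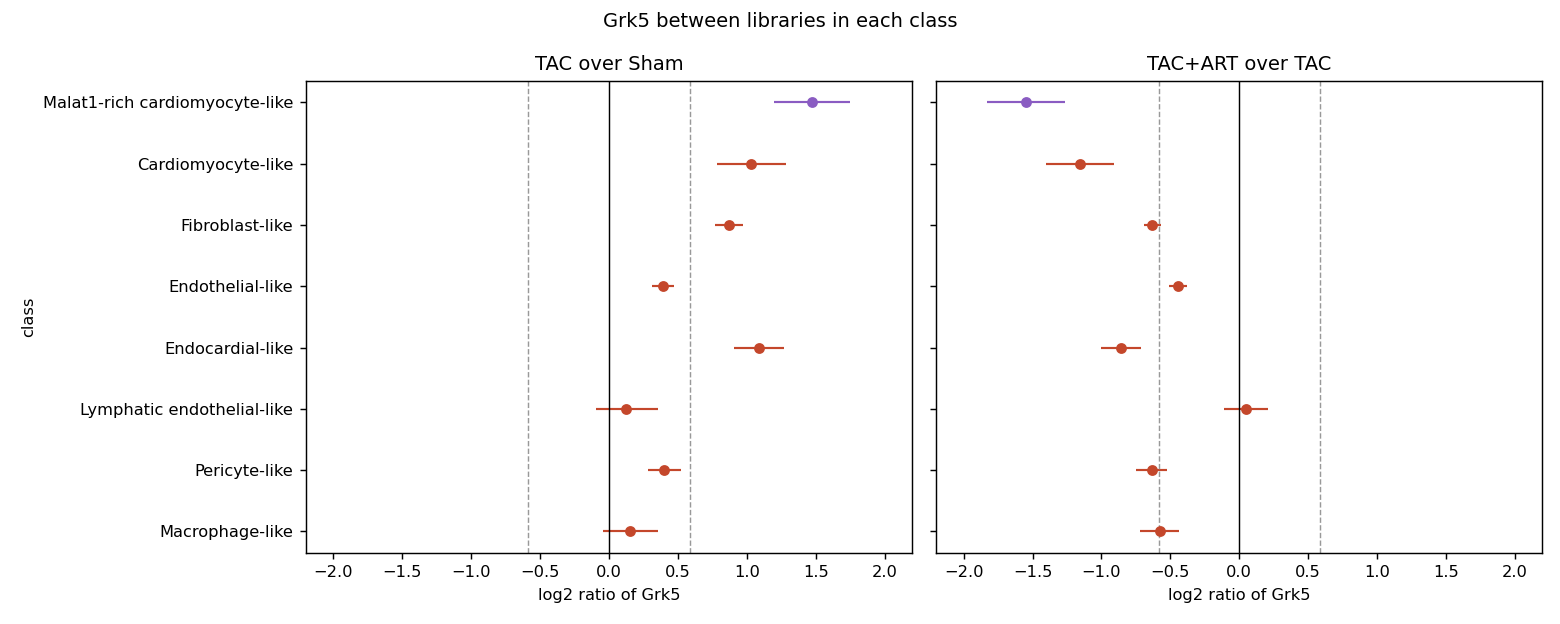
Log2 ratio of Grk5 (horizontal axis) in each class (vertical axis) for TAC over Sham (left) and TAC+ART over TAC (right), with exact conditional intervals; dashed lines mark 1.5-fold and purple marks the Malat1-rich cells. All ratios of TAC over Sham were above 0 and all of TAC+ART over TAC were below 0 except that of lymphatic endothelial-like cells, at 0.05.

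In macrophage-like cells Adrb1 was higher in TAC+ART than in TAC or Sham, and Adcy9 was lower in TAC than in the other 2. Adrb1 had 268 UMIs (61.1 CPM) in TAC+ART, 200 UMIs (31.2 CPM) in TAC and 33 UMIs (25.5 CPM) in Sham. Its interval in TAC+ART did not overlap those of the others. The ratio of TAC+ART over TAC was 0.97 (0.70 to 1.24), beside 6.69% of 12084 genes higher, that of TAC+ART over Sham was 1.24 (0.74 to 1.83), beside 8.21% of 10252 genes, and that of TAC over Sham was 0.27 (-0.24 to 0.87). At 1000 UMIs per cell, 6.25% of macrophage-like cells of TAC+ART had an Adrb1 UMI (58 of 928, 4.78 to 8.0%), against 2.70% in TAC (34 of 1260, 1.88 to 3.75%) and 2.47% in Sham (7 of 283, 1.0 to 5.03%). In fibroblast-like cells, where Adrb1 had 1.89 to 3.95 CPM, the shares were 0.44%, 0.44% and 0.20%. Median depths there were 4926 to 6245 UMIs, against 4195 to 4818.5 UMIs in macrophage-like cells. Unthinned, the macrophage-like shares were 22.6%, 12.9% and 10.6%.

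Summed cardiomyocyte markers, none at 0, were nearly the same in macrophage-like cells of the 2 TAC libraries, at 4631 CPM in TAC+ART and 4648 CPM in TAC, and 3594 CPM in Sham. Adra1a, a gene of heart muscle, also differed there, with 45 UMIs (10.3 CPM) in TAC+ART, 9 UMIs (1.40 CPM) in TAC and 5 UMIs (3.86 CPM) in Sham. By the same rule it passed upward beside Adrb1 in TAC+ART over TAC and also in TAC+ART over Sham, where 2 of 5 genes were higher (8.21% of genes) and 0 lower (8.45%). The TAC level of Adra1a was below the 3.01 to 12.5 CPM of the other 5 classes outside heart muscle, and the part of other cells' RNA in this gap was not tested.

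Adcy9 in macrophage-like cells had 1958 UMIs (446 CPM) in TAC+ART, 2001 UMIs (312 CPM) in TAC and 598 UMIs (462 CPM) in Sham. Its ratios were 0.52 (0.42 to 0.61) for TAC+ART over TAC and -0.57 (-0.70 to -0.43) for TAC over Sham, both under 1.5-fold. Cluster 17 held 77.4% of macrophage-like cells of TAC+ART and 77.4% of Sham, while cluster 18 held 61.2% of those of TAC. In cluster 19, present in all 3, Adrb1 had 53.9 CPM in TAC+ART (38 UMIs, 38.1 to 74.0), 31.1 CPM in TAC (65 UMIs, 24.0 to 39.6) and 22.9 CPM in Sham (3 UMIs, 4.7 to 66.8). Adcy9 there had 406 CPM in TAC+ART, 315 CPM in TAC and 396 CPM in Sham. The order of the libraries for Adrb1 was the same in that cluster, with overlapping intervals.

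Macrophage-like cells were also split by UMIs of F13a1 or Cd163, markers of resident macrophages, seen at 1000 UMIs per cell; levels are of all UMIs of those cells. Both genes are also among the markers that define the macrophage-like class, so the gate itself favours cells that have them. Cells with a UMI of either made up 93.8% of TAC+ART, 88.4% of TAC and 94.7% of Sham. Within them Adrb1 had 61.9 CPM in TAC+ART, 32.8 CPM in TAC and 25.3 CPM in Sham, a TAC+ART over TAC ratio of 0.91 (0.64 to 1.19). The few cells without those markers had 45.9 CPM in TAC+ART (11 UMIs, 22.9 to 82.1) and 17.5 CPM in TAC (12 UMIs, 9.02 to 30.5), a ratio of 1.40 (0.07 to 2.70). Since the cells with the markers are most of the class, the split adds little to the ratio over the whole class.

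**Figure D5:**
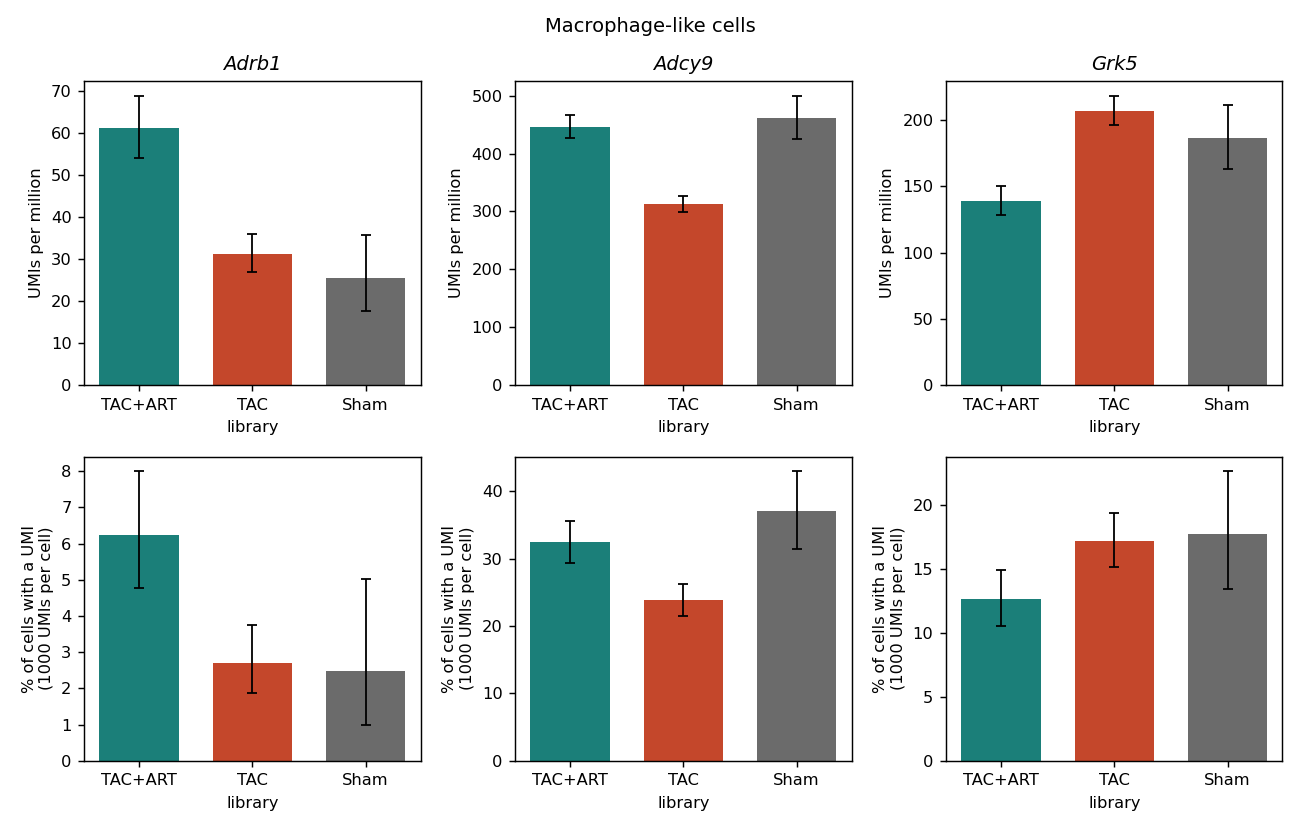
Adrb1, Adcy9 and Grk5 in macrophage-like cells of TAC+ART, TAC and Sham: level in CPM with exact Poisson intervals (upper row) and percent of cells with a UMI at 1000 UMIs per cell with Clopper-Pearson intervals (lower row). Adrb1 stood at 61.1 CPM in TAC+ART, against 31.2 CPM in TAC and 25.5 CPM in Sham, and Adcy9 was lowest in TAC.

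In pericyte-like cells, where Adcy5 and Adcy6 had their highest levels of the 7 classes, no cyclase passed 1.5-fold. Adcy5 had 214 UMIs in TAC+ART, 249 in TAC and 231 in Sham, and its ratio of TAC+ART over TAC was -0.48 (-0.75 to -0.21). Adcy6 had 635, 437 and 526 UMIs, with 0.28 (0.10 to 0.46) for TAC+ART over TAC and -0.38 (-0.57 to -0.20) for TAC over Sham. Adcy5 made up 25.2% of the UMIs of the pair in TAC+ART (22.3 to 28.3%), 36.3% in TAC (32.7 to 40.0%) and 30.5% in Sham (27.2 to 33.9%). In Malat1-rich cardiomyocyte-like cells that share was 25.4%, 28.2% and 23.1%, with overlapping intervals.

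Further genes of the pathway were read from 8 lists in cardiomyocyte-like cells. Of the G proteins, 5 of 7 with enough UMIs were higher in TAC than in Sham and 0 were lower, beside 26.0% and 19.3% of all genes, with a median log2 ratio of 1.25 beside -0.01. In Malat1-rich cells 4 of 6 were higher and 0 lower, beside 14.1% and 14.3%, with a median of 0.69 beside -0.05. With at least 200 UMIs a gene, 1 of 2 was higher and 0 lower in Malat1-rich cells, and the median was 0.32. At that limit 225 of all 2192 genes were higher and 293 lower, with a median of -0.11. Fibroblast and macrophage markers were also higher in TAC than in Sham in these cells (macrophage markers 480 against 111 CPM in all cardiomyocyte-like cells and 192 against 88.0 CPM in Malat1-rich ones), and their part in the G protein gap was not tested. Gnas, the Gs alpha subunit that links beta receptors to the cyclases, had 202 CPM in Malat1-rich cells of TAC+ART, 250 CPM in TAC and 150 CPM in Sham, a TAC over Sham ratio of 0.74 (0.47 to 1.01), against 1.35 in all cells. Gnb2, a beta subunit, gave 0.83 (0.09 to 1.54) and 1.47. Gnaq, the Gq alpha subunit of the alpha-1 receptors, gave -0.09 (-0.41 to 0.21) and -0.12, and Gnai3, an inhibitory subunit, gave -0.15 (-0.91 to 0.51) and -0.07.

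Of the other receptor kinases and arrestins, 3 of the 6 present had enough UMIs in all cardiomyocyte-like cells, with 1 higher (Grk2, beside 26.0% of all genes) and 1 lower (Grk6, beside 19.3%) in TAC. In Malat1-rich cells 1 had enough (Grk3) and was neither higher (14.1%) nor lower (14.3%). Grk2, the other main receptor kinase of heart muscle, had 56 UMIs (23.6 CPM) in TAC+ART, 33 UMIs (24.2 CPM) in TAC and 32 UMIs (14.8 CPM) in Sham, a TAC over Sham ratio of 0.71 (-0.04 to 1.46). Grk6 had a ratio of -0.61 (-1.61 to 0.26) and Grk3 of -0.15 (-0.91 to 0.57). All 3 intervals held 0 in all cells, whereas that of Grk5 did not. In Malat1-rich cells Grk2 gave 0.94 (-0.23 to 2.03), Grk3 -0.44 (-1.54 to 0.46) and Grk6 -1.46 (-3.57 to -0.11), the last from 4 and 32 UMIs; the difference between kinases was not tested. Of the other cyclases, Adcy7 had 31.5 CPM in TAC and 6.47 CPM in Sham, a ratio of 2.25 (1.39 to 3.27), and in Malat1-rich cells 1.73 (0.16 to 3.41) from 9 and 7 UMIs. Adcy8 had a ratio of -1.46 (-2.75 to -0.46), from 9 and 41 UMIs, and -0.86 (-2.24 to 0.18) in Malat1-rich cells. Adcy7 is a gene of fibroblast- and macrophage-like cells in these libraries, and fibroblast markers were higher in cardiomyocyte-like cells of TAC than of Sham, at 2627 and 800 CPM; their part in the Adcy7 gap was not tested. None of the 5 other adrenergic receptor genes present had 50 UMIs in cardiomyocyte-like cells in TAC with Sham or in TAC+ART with TAC.

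Of protein kinase A subunits, anchors and Epac proteins, 2 of 11 were higher and 2 lower in TAC in all cardiomyocyte-like cells, beside 26.0% and 19.3% of all genes. In Malat1-rich cells 1 of 10 was higher and 0 lower, beside 14.1% and 14.3%. Prkar1a, a regulatory subunit that holds the kinase inactive, had 71.6 CPM in Malat1-rich cells of TAC+ART, 128 CPM in TAC and 72.0 CPM in Sham. TAC over Sham gave 0.83 (0.43 to 1.22), and TAC+ART over TAC gave -0.84 (-1.23 to -0.44). The anchors Akap6 and Akap13 gave TAC over Sham ratios of -0.67 and -0.62 in all cells and -0.15 and -0.42 in Malat1-rich cells, and Akap12 gave 0.71 and 0.78 from few UMIs.

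Of the kinase's targets in heart muscle, 2 of 7 were higher and 3 lower in TAC in all cells, beside 26.0% and 19.3% of all genes. In Malat1-rich cells 0 of 7 were higher or lower, beside 14.1% and 14.3%. Cacna1c, the pore of the L-type calcium channel, gave -0.83 in all cells and -0.17 (-0.21 to -0.12) in Malat1-rich cells. Kcnq1, a potassium channel, gave -0.66 and -0.04. Tnni3 (cardiac troponin I) gave 1.32 and 0.44 (0.29 to 0.58), and Mybpc3 (cardiac myosin-binding protein C) gave 0.62 and 0.16.

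Downstream of the alpha-1 receptors, 2 of 8 Gq effectors and regulators were higher and 1 lower in TAC in all cells, beside 26.0% and 19.3% of all genes. In Malat1-rich cells 1 of 6 was higher and 1 lower, beside 14.1% and 14.3%. Plcb1, a phospholipase C switched on by Gq, had 55.7 CPM in Malat1-rich cells of TAC+ART, 129 CPM in TAC and 44.0 CPM in Sham. The log2 ratio of TAC over Sham was 1.55 (1.11 to 1.99), and TAC+ART over TAC gave -1.21 (-1.63 to -0.79). In Malat1-poor cells, where its level was higher, the TAC over Sham ratio was -0.35 (-0.77 to 0.10). Prkce (protein kinase C epsilon) had 598 CPM in TAC+ART, 390 CPM in TAC and 690 CPM in Sham, all in Malat1-rich cells. It gave -0.82 (-1.01 to -0.64) in TAC over Sham, while TAC+ART over TAC gave 0.61 (0.43 to 0.81). Itpr2, an IP3 receptor, gave -0.32 (-0.69 to 0.02) for TAC over Sham, and Rgs3 had 10 UMIs in TAC and 21 in Sham. The Rgs3 counts are not levels, because Malat1-rich cells held 735955 UMIs in total in TAC and 1930745 in Sham. They are too few to give a direction.

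Of the genes of catecholamine uptake and breakdown, 2 of 5 had enough UMIs. Of these, 1 was higher and 1 lower in TAC in all cardiomyocyte-like cells, beside 26.0% and 19.3% of all genes, and 0 were higher and 1 lower in Malat1-rich cells, beside 14.1% and 14.3%. Maob, an oxidase that breaks down monoamines, had 64 UMIs (35.3 CPM) in Malat1-rich cells of TAC+ART, 15 UMIs (20.4 CPM) in TAC and 107 UMIs (55.4 CPM) in Sham, a TAC over Sham ratio of -1.40 (-2.33 to -0.66), and -1.16 (-1.79 to -0.60) in all cells.

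The genes most like each of the 7 over the 21 pairs of class and library were Esrrg (Pearson r = 0.976) and Ppargc1a (r = 0.974) for Adra1a, Cluh (0.943) and Mhrt (0.941) for Adra1b, and Tmod1 (0.962) and Acss1 (0.928) for Adrb1. For the cyclases they were Cap2 (0.933) and Agtr1a (0.922) for Adcy5, Vcl (0.937) and Cystm1 (0.924) for Adcy6, and Pfkfb4 (0.951) and Sh3kbp1 (0.913) for Adcy9. For Grk5 they were Stx1a (0.934) and Map1b (0.914). The values are r of log2(CPM + 1) among 12318 genes, and the points share libraries and classes, so they describe the pattern only.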

How the data were processed

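RNA was counted in 3 libraries of mouse ventricle, each pooling 3 hearts. The deposited values are raw UMI counts per gene and cell; Cell Ranger, Seurat and mm10 are named per the submitters' processing notes, with no versions. The 7 genes and the pathway lists were chosen with earlier results of these data known. Barcodes with under 500 UMIs, under 300 genes or over 10% mitochondrial UMIs were left out, as were the barcodes with the highest Scrublet scores (0.8% per 1000 barcodes). Cells were classed by marker scores that used none of these genes, and UMIs were summed per class and library. Levels (CPM) are UMIs per 1000000 UMIs of the class. Intervals are exact Poisson (levels), exact conditional binomial (ratios, with 0.5 counts added to the point value) and Clopper-Pearson (shares), at 95%, and cover counting error only. With 1 library per group no test was possible. Genes counted as higher or lower had at least 50 UMIs over both libraries and a ratio of at least 1.5-fold. Named genes are the 7, the 2 highest and 2 lowest of each list by TAC over Sham ratio in cardiomyocyte-like cells, and the 2 genes most like each of the 7; others are said to be chosen after their values were seen, and some genes are not reported here. Alternatives covered doublets, classes, deep and shallow cells, normalization, weighting, counts added, thinning and thresholds. Scripts used Python 3.11.15, scanpy 1.11.5, scipy 1.17.1 and, for the TMM alternative, edgeR 4.0.16. The ratio and interval functions were run on simulated Poisson counts. These leave out the clumping of UMIs in single cells, so the run checks the functions only.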

Additional observations from a re-analysis of the deposited data

How the results depend on the processing

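No paired analysis was possible because each group had 1 library. Of 140 values for the 7 genes in cardiomyocyte-like cells under the alternatives, 124 stayed close to the reported ratio, 16 moved and 0 reversed. A change of sign near 0 could still count as close. Adrb1 in TAC+ART over TAC lay above 0 in all cardiomyocyte-like cells and below 0 in Malat1-rich cells. Its TAC over Sham interval held 0 only in Malat1-rich cells, and this too counted as close. For TAC over Sham, Adra1a was -1.37 with at most 8000 UMIs per cell and -1.49 as a mean of per-cell levels. In cells with at least 5% or 8% Malat1 it was -0.24 or -0.10, Adcy6 was -0.040 or -0.072, Adcy9 -0.60 or -0.62 and Grk5 1.47 or 1.51, while Grk5 was 0.78 as a mean of per-cell levels. For TAC+ART over TAC, Adra1a was 1.07 as a mean of per-cell levels and 0.20 or 0.093 by Malat1, and Grk5 was -1.55 or -1.52. The Malat1 alternatives were chosen after seeing the data. The counts of genes past 1.5-fold in cardiomyocyte-like cells (2081 higher and 1550 lower in TAC over Sham, 854 higher and 1489 lower in TAC+ART over TAC) were 7821, 5941, 5287 and 6171 with no UMI minimum, 651, 721, 355 and 532 with at least 200 UMIs, and 1245, 550, 197 and 396 at 2-fold. Of 672 other values for the 7 genes, 10 moved and 0 reversed. Adra1b in TAC rests on 23 UMIs. Shares of cells with a UMI rest on the depth: without thinning 21 of 21 moved, and at 2000 UMIs per cell 17 moved.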
